A study of Mus musculus with 24 samples.

Results

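Retinoic acid pathway genes were followed through the formation of mouse optic vesicle organoids, which are aggregates of embryonic stem cells that form eye-field tissue and bud out optic vesicles. The 10 genes were taken by symbol and cover synthesis (Aldh1a1, Aldh1a2, Aldh1a3), breakdown (Cyp26a1, Cyp26b1, Cyp26c1), intracellular binding (Crabp1, Crabp2), a receptor (Rarb) and the reduction of retinaldehyde (Dhrs3). They were 10 of 49705 gene entries in the table, and all 10 were among the 21005 genes that reached 10 normalized counts in at least 3 libraries and were tested. The cells were Rx-GFP K/I EB5 mouse embryonic stem cells, a single line in which GFP was knocked into the eye-field gene Rax, and no added retinoid is named in the labels or the main methods text, and the supplementary methods were not used here. Each culture began with 4500 cells per well, and 2% Matrigel was added at day 1. The labels name a medium with 1.5% knockout serum replacement, whereas the study's methods name a chemically defined medium for its initial organoids, so the medium of these samples is uncertain. Live single cells from 24 pooled organoids made up each sample, with 3 libraries for each of 8 groups. Days 0, 1, 2 and 3 were taken unsorted for GFP, while days 4 and 5 were each divided into a GFP-positive and a GFP-negative gate. The gates were set to keep many cells, so the GFP-negative gate also holds cells with a little GFP. The study calls the 3 libraries of a group biological triplicates of organoid cultures and does not name separate days, so the p-values measure the spread between these libraries.

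Retinoic acid is a small lipophilic signal made from vitamin A. Retinol is first oxidized reversibly to retinaldehyde, which the ALDH1A enzymes then turn irreversibly into retinoic acid, and the CYP26 enzymes oxidize retinoic acid to forms that are cleared. CRABP proteins carry it within the cell, and it acts through RAR and RXR receptors bound to paired short motifs in DNA, often near genes such as Rarb, Cyp26a1 and Dhrs3. In the mouse eye, Aldh1a2 is known for a transient appearance around the optic vesicle, Aldh1a1 for the dorsal retina, Aldh1a3 for the ventral retina and pigmented epithelium, and Cyp26a1 and Cyp26c1 for a band between the dorsal and ventral retina.

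The promoters of Rarb and Cyp26a1 are shown because they alone among the 8 members with a promoter entry carried the best-known type of receptor site. The sequences are the 250 bases before the RefSeq start (GRCm38.p6), written 5′ to 3′ on the strand of the gene, with the site in capitals. The Rarb stretch is at chr14:16575477-16575726 (minus strand), inside the annotated gene at the start of a shorter transcript, and the Cyp26a1 stretch is at chr19:37697558-37697807 (plus strand).
Rarb: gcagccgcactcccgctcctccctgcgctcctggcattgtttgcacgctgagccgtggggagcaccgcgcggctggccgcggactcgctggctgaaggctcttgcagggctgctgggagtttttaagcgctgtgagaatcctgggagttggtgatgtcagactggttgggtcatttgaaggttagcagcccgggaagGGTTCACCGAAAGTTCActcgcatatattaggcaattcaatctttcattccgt
Cyp26a1: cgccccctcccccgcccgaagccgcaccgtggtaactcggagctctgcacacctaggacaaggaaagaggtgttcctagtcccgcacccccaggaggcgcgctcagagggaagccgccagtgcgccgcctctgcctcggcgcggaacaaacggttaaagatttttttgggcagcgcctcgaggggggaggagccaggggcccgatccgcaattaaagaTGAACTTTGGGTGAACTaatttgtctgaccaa

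The capitals mark a direct repeat of 2 motifs spaced by 5 bases (DR5), searched on both strands. Each motif was AGGTCA or GGGTCA, or the same with T in place of the inner G, as AGTTCA and GGTTCA. In Rarb the repeat ran from 53 to 37 bases before the start on the strand of the gene, and in Cyp26a1 it ran from 32 to 16 bases before the start on the opposite strand. Of 32851 promoters searched in this way over the same window, 32 held such a repeat (0.0974%). RefSeq promoters were found for 8 of the 10 members, with none for Aldh1a3 and Crabp2, and repeats spaced by 2 bases (0.268% of all promoters) or by 1 base (0.222%) were found in none of them. A match is a description of the letters in this window and not a measured binding site. Of the 29 other genes with a DR5 repeat, 7 were tested, and 0 of these 7 were called by limma between the gates on either day. An unadjusted limma p below 0.05 was found for 3 at day 4 and 1 at day 5, beside 5401 and 5523 of all 21005 tested genes.

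The 10 genes lie on 7 chromosomes, with coordinates in the mm10 build that are the same in the deposited table and in GENCODE M21. Aldh1a1 is at chr19:20492715-20643465, Aldh1a2 at chr9:71215789-71296243 and Aldh1a3 at chr7:66390890-66427517. Cyp26c1 (chr19:37685581-37693398) and Cyp26a1 (chr19:37697798-37701536) are neighbours on the same strand with 4399 bases between them, whereas Cyp26b1 is at chr6:84571414-84593908. Crabp1 is at chr9:54764748-54773110, Crabp2 at chr3:87948666-87953376, Rarb at chr14:16430839-16819156 and Dhrs3 at chr4:144892827-144928209. Transcripts of the Aldh1a members shared none of their 31-base words with each other, and the same held within the Cyp26 and Crabp members. Aldh1a1 shared 5.7% of its words with its close relative Aldh1a7, which is no member. Rarb shared 32.1% of its words with Top2b, a topoisomerase gene read from the opposite strand, and the strandedness of the counting was not given in the sources used here. The authors described their index as coding regions and non-coding RNA, so it may hold less than the annotated transcripts compared here.

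Estimated depth was similar across libraries, at 36901100 to 54598000 reads. Rank correlations between replicates were 0.979 to 0.993 for 22 pairs, and 0.953 to 0.954 for the pairs that included replicate 1 of day 0. That library stood apart in the members too, since 5 of 10 were more than 2-fold above the mean of the other day 0 libraries and 3 were more than 2-fold below it, against 14.4% and 15.2% of all tested genes. Results that rest on day 0 are therefore also given without it. In the gates, 5 of 5 eye-field markers (Rax, Lhx2, Six3, Six6, Pax6) were called higher in GFP-positive cells on both days. Rax carries the GFP used for sorting, so its own difference was set by the gates. On both days 6 of 6 pluripotency markers and 7 of 7 mesendoderm markers were called lower. Of all tested genes, 0.328% and 0.400% were called higher at days 4 and 5, and 3.63% and 4.61% lower. The summed mesendoderm markers were 6500.3 to 9677 normalized counts in day 4 GFP-negative libraries against 329 to 714 in GFP-positive ones, and 3354 to 4289 against 209 to 291 at day 5. In bulk samples fewer cells of a type and less RNA per cell cannot be told apart.

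Among the synthesis genes, Aldh1a2 rose from day 3 to day 4 in both gates. Its normalized counts at day 3 were 14.6, 40.9 and 16.1 in replicates 1, 2 and 3. At day 4 they were 698, 1059 and 1032 in GFP-negative libraries and 1918, 2233 and 1886 in GFP-positive libraries. All 6 day 4 libraries were far above every earlier library, and the GFP-positive ones were above the GFP-negative ones without overlap. From day 3, Aldh1a2 rose by 6.49 ± 0.42 (log2 fold change ± SE) in GFP-positive cells and by 5.35 ± 0.42 in GFP-negative cells (adjusted p = 8.47e-11 and 1.29e-08, limma across 21005 genes with Benjamini-Hochberg adjustment). The gate difference at day 4 was 1.13 ± 0.42 (adjusted p = 0.0766) and did not pass the test.

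At day 5 Aldh1a2 was lower again in GFP-positive cells, although the change was not called. The values were 572, 542 and 623 in GFP-positive libraries and 264, 951 and 436 in GFP-negative libraries. The GFP-negative libraries were widely spread around the GFP-positive ones, so the gates overlapped. The change from day 4 to day 5 in GFP-positive cells was -1.79 ± 0.42 (adjusted p = 0.00692), short of the p threshold of 0.001. The day 5 gate difference was 0.27 with a 95% interval of -0.60 to 1.15 (adjusted p = 0.765), and it became -0.16 without GFP-negative replicate 1, the lowest of the 3.

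Aldh1a3 showed the clearest change with gate and day. Its group means up to day 4 lay between 71.0 and 197 normalized counts, with no called step. At day 4 the values were 65.6, 67.7 and 79.6 in GFP-negative libraries and 91.4, 77.6 and 66.9 in GFP-positive libraries. At day 5 they were 160.4, 92.5 and 86.0 in GFP-negative libraries and 893, 808 and 944 in GFP-positive libraries. The 3 day 5 GFP-positive libraries stood above all 21 others, and no other 2 neighbouring groups in the order of means were free of overlap. Aldh1a3 was 8.04-fold higher in GFP-positive cells at day 5 (log2 fold change 3.01 ± 0.30, adjusted p = 1.64e-07), and it rose by 3.48 ± 0.30 from day 4 within the GFP-positive gate (adjusted p = 7.82e-08).

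The gate difference of Aldh1a3 at day 4 was 0.14 (95% interval -0.48 to 0.76), and the test of the change in gate difference from day 4 to day 5 gave 2.87 ± 0.42 (adjusted p = 0.00085). It was the 1 member called in that test, in which 0.109% of all genes were called in either direction. The adjusted p lay close to the threshold and ranged from 4.45e-05 to 0.00412 when each of the 24 libraries was left out, with 18 of the 24 fits above 0.001. Among the 12 libraries compared, the call was kept only without day 5 GFP-negative replicate 1, while the difference itself stayed between 2.70 and 3.15.

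Aldh1a1 rose in both gates from day 4 to day 5. Up to day 4 GFP-negative its group means were 1.79 to 5.09 normalized counts, a level of a few reads. The values were 15.3, 16.7 and 25.5 in day 4 GFP-positive libraries, 43.3, 58.2 and 56.6 in day 5 GFP-negative libraries and 128.9, 149.6 and 132.5 in day 5 GFP-positive libraries. These 3 groups were apart from each other and from the earlier groups, in which neighbours in the order of means overlapped. From day 4 to day 5 it was called higher in both gates, by 3.14 ± 0.46 in GFP-negative cells (adjusted p = 8.86e-05) and by 2.81 ± 0.46 in GFP-positive cells (adjusted p = 0.000245). The first call was lost in a fit to the groups compared alone (adjusted p = 0.00118) and in a test against a log2 fold change of 1.5 (adjusted p = 0.274). The second call was lost in the same tests (adjusted p = 0.00219 and 0.864) and with a pseudocount of 0.5 (adjusted p = 0.00163). The same call was lost without any one of the day 5 GFP-positive libraries or day 4 GFP-positive replicate 1 or 2. Between the gates it was 1.70 ± 0.46 higher in GFP-positive cells at day 4 (adjusted p = 0.0124) and 1.37 ± 0.46 higher at day 5 (adjusted p = 0.0448), and neither passed the threshold of 0.001.

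Aldh1a7, the relative that shares sequence with Aldh1a1, was also highest in day 5 GFP-positive libraries. Its means were 139 ± 11.8 (SD, n = 3) normalized counts in day 4 GFP-negative, 318 ± 18.7 in day 4 GFP-positive, 274 ± 12.6 in day 5 GFP-negative and 632 ± 61.9 in day 5 GFP-positive libraries. How far reads of the 2 genes were exchanged in the authors' quantification was not tested.

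**Figure D1:**
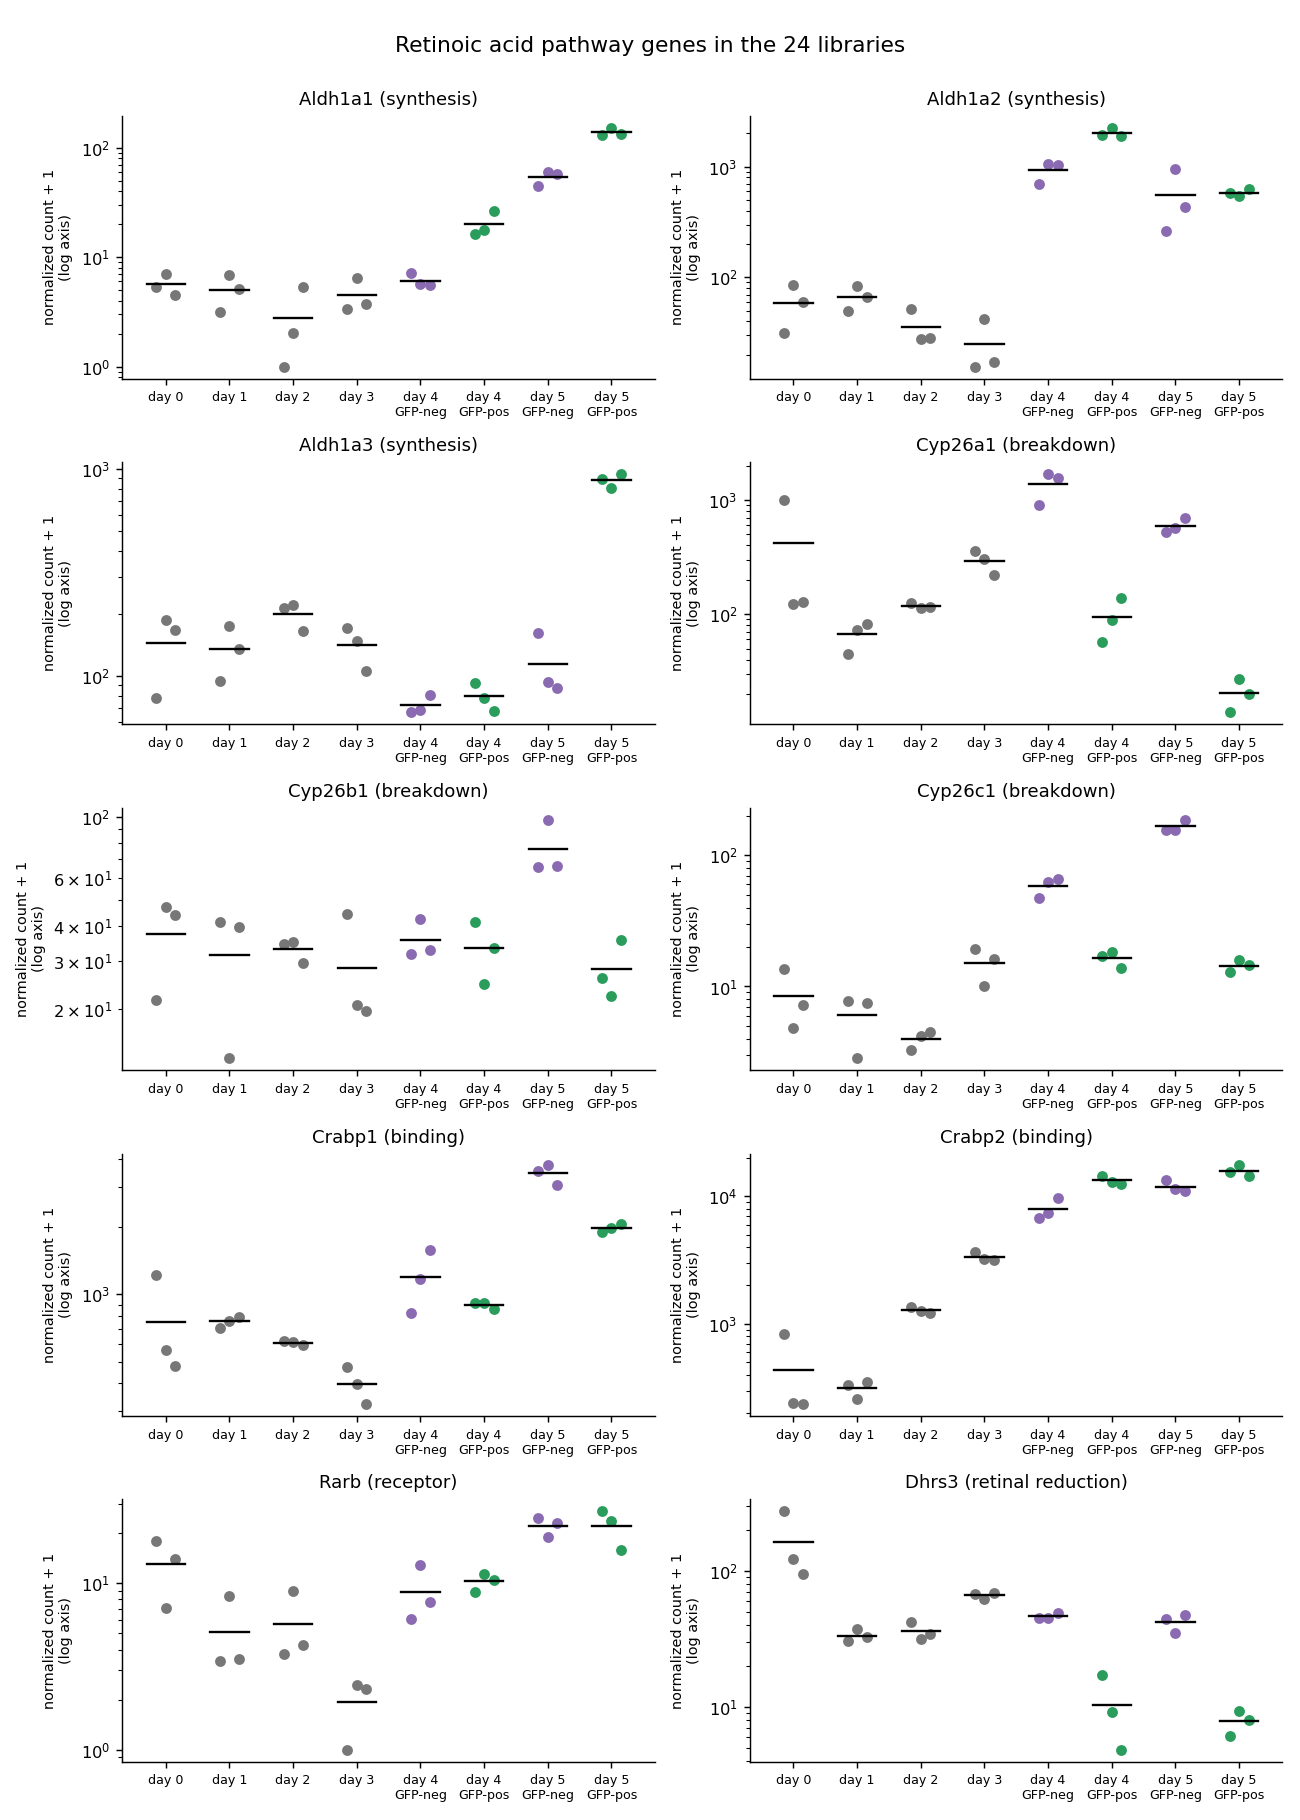
Normalized counts plus 1 (log axis) of the 10 retinoic acid pathway genes in 24 libraries; each point is a library, black lines are group means, and green and purple mark the GFP-positive and GFP-negative gates. Aldh1a2 is higher at day 4 than at day 3 in both gates, Aldh1a3 is high in the 3 day 5 GFP-positive libraries, and Cyp26a1, Cyp26c1 and Dhrs3 are low in GFP-positive libraries.

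Per kilobase of exon, the make-up of the synthesis genes changed between day 3 and day 5. The summed Aldh1a level was 41.6 ± 10.5 (SD, n = 3) normalized counts per kilobase at day 3, 909.7 ± 84.2 in day 4 GFP-positive and 427 ± 89.5 in day 4 GFP-negative libraries. It was 474 ± 31.03 in day 5 GFP-positive and 278 ± 154 in day 5 GFP-negative libraries. Aldh1a3 made up 73.7% ± 10.9 of this sum at day 3 and Aldh1a2 97.7% ± 0.313 in day 4 GFP-positive libraries. In day 5 GFP-positive libraries Aldh1a2 made up 53.9% ± 0.417, Aldh1a3 40.2% ± 0.823 and Aldh1a1 5.88% ± 0.817, but Aldh1a2 and Aldh1a3 stood level at 44.9% and 44.9% when the length of the longest transcript was used. These shares compare RNA levels and not enzyme activity, and the exon lengths may exceed the lengths the authors quantified.

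Among the breakdown genes, Cyp26a1 was high in the GFP-negative gate and low in the GFP-positive gate on both days. At day 4 its normalized counts were 908, 1695 and 1546 in GFP-negative libraries and 55.8, 87.9 and 138 in GFP-positive libraries. At day 5 they were 527, 563 and 693 in GFP-negative libraries and 12.8, 25.8 and 19.0 in GFP-positive libraries. The gates did not overlap on either day, and the day 5 GFP-positive libraries were below every other library of the series. Cyp26a1 was 15.03-fold lower in GFP-positive cells at day 4 (log2 fold change -3.91 ± 0.54, adjusted p = 1.55e-05) and 30.4-fold lower at day 5 (-4.92 ± 0.54, adjusted p = 6.57e-07). The change of the gate difference was -1.02 with a 95% interval of -2.60 to 0.57 (adjusted p = 0.777).

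Before the gates, Cyp26a1 was at 44.2 to 81.5 normalized counts at day 1, 111 to 125 at day 2 and 220.0 to 356 at day 3, and these groups did not overlap. None of these steps was called. Day 0 was split, with 998 in replicate 1 against 122 and 127 in replicates 2 and 3. From day 3 the difference was 2.21 ± 0.54 in day 4 GFP-negative cells (adjusted p = 0.00533) and -1.70 ± 0.54 in day 4 GFP-positive cells (adjusted p = 0.0159), on opposite sides of the day 3 level, and neither was called.

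Cyp26c1, its neighbour on the chromosome, was likewise higher in GFP-negative cells, from much lower levels. The values at day 4 were 46.6, 61.4 and 64.8 in GFP-negative libraries and 15.9, 17.4 and 12.9 in GFP-positive libraries. At day 5 they were 154, 155 and 186 in GFP-negative libraries and 11.9, 14.9 and 13.6 in GFP-positive libraries. No overlap was seen on either day, and the GFP-positive libraries of both days were near the day 3 level of 9.05 to 18.3. At day 5 Cyp26c1 was 11.5-fold lower in GFP-positive cells (-3.52 ± 0.39, adjusted p = 8.49e-07). At day 4 the difference of -1.83 ± 0.39 had an adjusted p of 0.00197 and was not called, but it passed with a pseudocount of 5 or without day 0 replicate 1 or day 1 replicate 2. Whether the gate difference itself grew from day 4 to day 5 was not resolved by its test (-1.69, 95% interval -2.85 to -0.54, adjusted p = 0.197). The rise of 1.99 ± 0.39 from day 3 to day 4 GFP-negative was called (adjusted p = 0.000931), and this call was lost without each of the 6 libraries compared, in a fit to those alone (adjusted p = 0.00732) and in a test against 1.5 (adjusted p = 1). It was lost in 19 of the 24 fits with a library left out. Other losses came with a pseudocount of 0.5 (adjusted p = 0.00169), no filter (0.00297), quantile normalization (0.00231) and the replicate block (0.00108).

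Cyp26b1 differed from both relatives. It stayed at group means of 27.0 to 36.6 normalized counts in 7 groups, with neighbours in the order of means overlapping, and was above them in day 5 GFP-negative libraries at 64.6, 96.6 and 65.5. The day 5 GFP-positive libraries were at 25.0, 21.3 and 34.7, giving a difference of -1.45 ± 0.41 (adjusted p = 0.0161) that was not called. At day 4 the difference was -0.12 (95% interval -0.97 to 0.73), and its sign changed with the scaling or the libraries used.

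Summed per kilobase, the breakdown genes stood at 737 ± 217 in day 4 GFP-negative and 62.2 ± 19.4 in day 4 GFP-positive libraries, and at 408 ± 53.3 and 22.4 ± 3.99 at day 5. The opposite order held for the summed synthesis genes at day 4. At day 5 the lowest GFP-positive synthesis sum, 445, was below the highest GFP-negative one, 452, but with the length of the longest transcript the GFP-positive sums of 538 to 606 lay above the GFP-negative ones of 181 to 472. Cyp26a1 made up 93.4% to 95.2% of the breakdown sum in day 4 GFP-negative libraries, and Cyp26c1 22.7% to 24.1% in day 5 GFP-negative libraries.

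**Figure D2:**
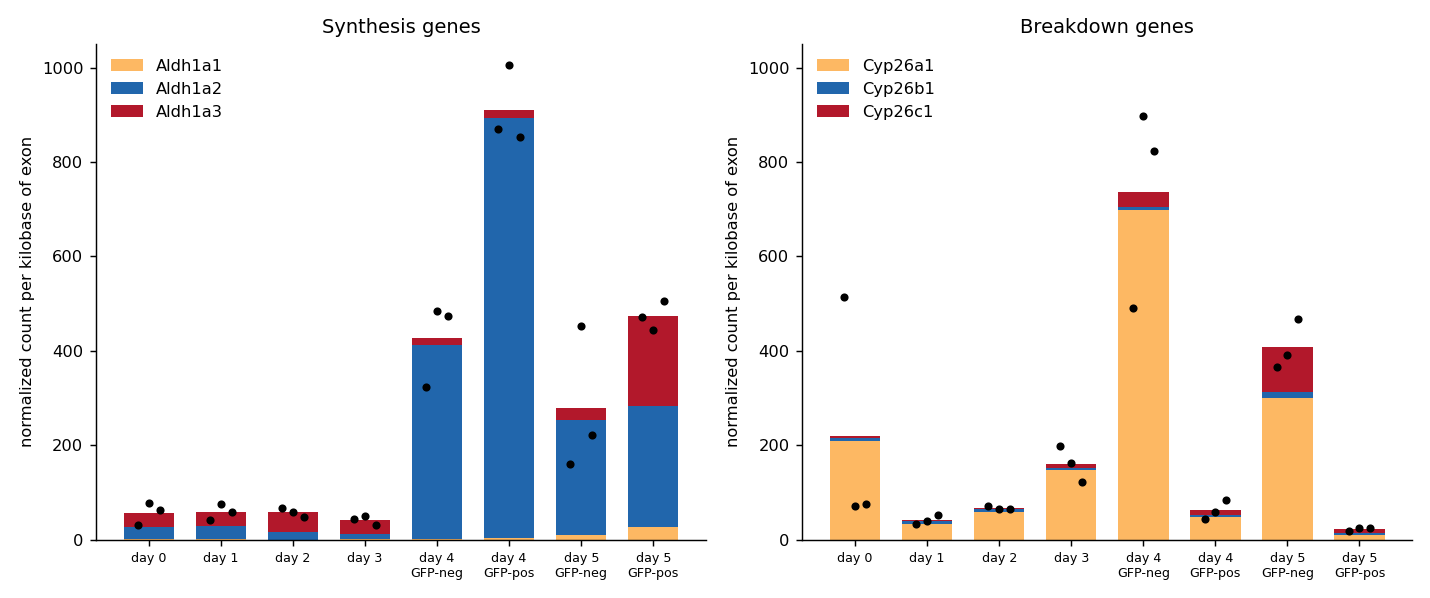
Normalized counts per kilobase of exon for the synthesis genes (left) and breakdown genes (right) in the 8 groups; bars stack the group means of each gene and black points are the sums in single libraries. In day 4 GFP-negative libraries the breakdown sum reaches 737 and in day 4 GFP-positive libraries 62.2, while the synthesis sums are 427 and 909.7.

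Both binding protein genes were abundant. Crabp2, which delivers retinoic acid to nuclear receptors, was at 258 to 347 normalized counts at day 1, 1222 to 1343 at day 2 and 3156 to 3631 at day 3. At day 4 the values were 6719, 7405 and 9629 in GFP-negative libraries and 14519, 12930 and 12513 in GFP-positive libraries. These 5 groups did not overlap. The step from day 1 to day 2 was called (2.03 ± 0.30, adjusted p = 5.69e-05), as was that from day 3 to day 4 GFP-positive (2.00 ± 0.30, adjusted p = 1.29e-05). Both calls were lost in a test against a log2 fold change of 1.5 (adjusted p = 1 and 0.624).

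At day 5 Crabp2 stood at 13309, 11431 and 11044 in GFP-negative libraries and at 15416, 17451 and 14418 in GFP-positive libraries. The GFP-positive libraries were higher without overlap on both days. The differences of 0.76 ± 0.30 at day 4 (adjusted p = 0.0914) and 0.40 ± 0.30 at day 5 (adjusted p = 0.439) were not called. Neither reached the fold threshold for a call, whatever its p. The SE was taken from the spread within all groups, day 0 included. When each library was left out of the limma fit in turn, the adjusted p ranged from 9.16e-05 to 0.248 at day 4. At day 5 the adjusted p ranged from 0.0229 to 0.658. Day 0 replicate 1, at 826, was above the other day 0 libraries at 238 and 234.

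Crabp1, which binds retinoic acid in the cytoplasm, leaned the other way. It stood at 709 to 793 normalized counts at day 1 and at 323 to 473 at day 3, with no called step in between. At day 5 it reached 3548, 3759 and 3082 in GFP-negative libraries and 1888, 1979 and 2050 in GFP-positive libraries, which did not overlap. It rose in the GFP-negative gate by 1.54 ± 0.25 from day 3 to day 4 (adjusted p = 0.000107) and by 1.59 ± 0.25 from day 4 to day 5 (adjusted p = 0.000165). The first call was lost without day 3 replicate 3 or day 4 GFP-negative replicate 3, and the second without replicate 1 or 2 of either GFP-negative group. Both were lost in fits to the groups compared alone (adjusted p = 0.00572 and 0.00599) and in tests against 1.5 (adjusted p = 1 for both). The gate difference at day 5 was -0.81 ± 0.25 (adjusted p = 0.0262) and was not called, and at day 4 it was -0.36 with overlapping gates (adjusted p = 0.41).

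Per kilobase, Crabp2 was at 11923 ± 1169 and Crabp1 at 2459 ± 101 normalized counts in day 5 GFP-positive libraries. In day 1 libraries the order was the reverse, with Crabp1 at 941 ± 53.0 and Crabp2 at 237 ± 36.1.

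Rarb, the receptor gene with the site shown above, was scarce throughout. The values were 0.00, 1.46 and 1.32 normalized counts at day 3, 5.09, 11.9 and 6.67 in day 4 GFP-negative libraries and 7.88, 10.4 and 9.52 in day 4 GFP-positive libraries. At day 5 they were 23.8, 17.9 and 21.9 in GFP-negative libraries and 26.1, 22.8 and 14.8 in GFP-positive libraries. Day 3 was below every other group, and the gates overlapped on both days. The rise from day 3 was called in GFP-positive cells (2.51 ± 0.48, adjusted p = 0.000228) and was 2.24 ± 0.48 in GFP-negative cells (adjusted p = 0.00186). The call was lost in a fit to the groups compared alone (adjusted p = 0.00414), in a test against 1.5 (0.305), with a pseudocount of 5 (1.27, adjusted p = 0.0014) and without day 3 replicate 1 or day 4 GFP-positive replicate 2 or 3.

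The gate differences of Rarb were 0.27 (95% interval -0.72 to 1.27) at day 4 and -0.03 (-1.02 to 0.97) at day 5. Top2b, which overlaps it, was at 4254 ± 837 normalized counts at day 3, 6971 ± 80.7 and 8986 ± 301 in the day 4 GFP-negative and GFP-positive gates and 8722 ± 602 and 9983 ± 1295 at day 5. The part of these reads in the Rarb values was not tested.

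Dhrs3, which reduces retinaldehyde back to retinol, was low in GFP-positive cells. At day 3 its values were 66.9, 61.1 and 67.9 normalized counts. They were 44.0, 44.3 and 48.2 in day 4 GFP-negative libraries and 16.1, 8.23 and 3.82 in day 4 GFP-positive libraries. The GFP-positive libraries were below every library of days 0 to 3. At day 5 they were 43.7, 33.8 and 46.4 against 5.09, 8.39 and 7.04. Dhrs3 was 5.09-fold lower in GFP-positive cells at day 4 (-2.35 ± 0.37, adjusted p = 9.23e-05) and 5.43-fold lower at day 5 (-2.44 ± 0.37, adjusted p = 5.19e-05). From day 3 it fell by 2.86 ± 0.37 in GFP-positive cells (adjusted p = 2.64e-06), whereas in GFP-negative cells the difference was -0.51 (adjusted p = 0.41). With a fit to the libraries compared alone, the adjusted p became 0.0136 for the gates at day 4, 0.00152 for those at day 5 and 0.00157 for the fall from day 3. In a test against a log2 fold change of 1.5 it was 0.614 for the gates at day 4 and 0.298 for those at day 5.

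Dhrs3 also fell from day 0 to day 1, by 2.15 ± 0.37 (adjusted p = 0.00067), from 275, 122 and 94.99 to 29.6, 36.4 and 31.6 normalized counts. The groups did not overlap. Without day 0 replicate 1 the difference was -1.70 (adjusted p = 0.00271), and the call was lost in 16 of the 24 fits with a library left out, in a fit to the groups compared alone (adjusted p = 0.125) and in a test against 1.5 (adjusted p = 1).

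**Figure D3:**
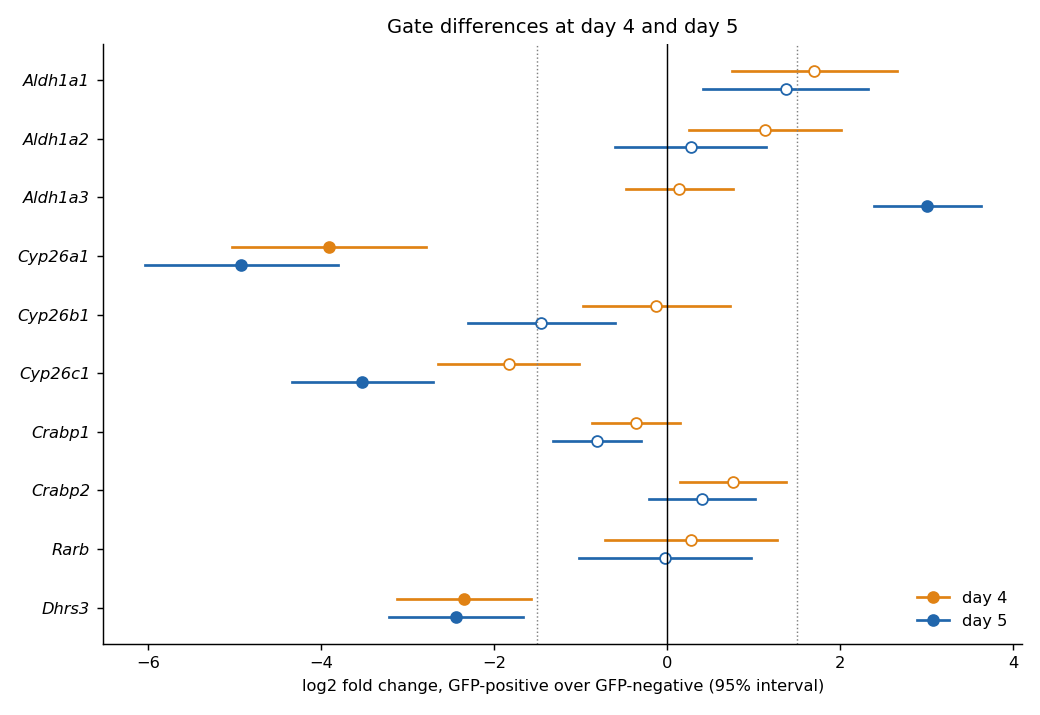
Log2 fold change of GFP-positive over GFP-negative cells for each gene at day 4 and day 5, with 95% intervals from the fit; filled points passed the test and dotted lines mark a log2 fold change of 1.5 either way. Cyp26a1 and Dhrs3 lie far to the left on both days and Aldh1a3 moves from 0.14 to 3.01.

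Of the 10 members, 0 were called higher by limma and 2 lower in GFP-positive cells at day 4, where 0.328% of all tested genes were called higher and 3.63% lower. At an unadjusted limma p below 0.05, 3 members were higher at day 4, beside 2031 of all 21005 tested genes. At day 5, 1 was called higher and 3 lower, against 0.400% and 4.61% of all genes. The median gate difference of the 10 members was 0.01 at day 4 and -0.42 at day 5, and that of all tested genes was 0.01 and 0.00. Without overlap between the gates were 6 members at day 4 and 8 at day 5, and 38.3% and 36.8% of all tested genes met the same condition.

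In the time course, 1 member (Dhrs3) was called lower from day 0 to day 1 (0.395% of all genes), 1 (Crabp2) higher from day 1 to day 2 (0.943% of all genes), and 0 in either direction from day 2 to day 3 (1.00% of all genes). In that last step, tested with limma, 7 members had an unadjusted p below 0.05, beside 5926 of all 21005 tested genes. Of the 7, Cyp26c1, Crabp2 and Rarb had an adjusted p below 0.05. From day 3 to day 4 GFP-positive, 4 were higher (Aldh1a1, Aldh1a2, Crabp2 and Rarb; 3.33% of all genes) and 1 lower (Dhrs3; 7.36%). The Aldh1a1 call (2.19 ± 0.46, adjusted p = 0.000591) was lost in a fit to the groups compared alone (adjusted p = 0.00339) and in a test against 1.5 (adjusted p = 0.79). It was also lost with a pseudocount of 0.5 (adjusted p = 0.00209), with no filter (adjusted p = 0.00184) and without any one of the day 4 GFP-positive libraries or day 3 replicate 1 or 3. From day 3 to day 4 GFP-negative, 3 were higher (Aldh1a2, Crabp1 and Cyp26c1; 2.00%). From day 4 to day 5, 2 were higher in GFP-positive cells (Aldh1a1 and Aldh1a3; 0.595%) and 2 in GFP-negative cells (Aldh1a1 and Crabp1; 0.762%). Steps into both gates share their day 3 libraries.

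**Figure D4:**
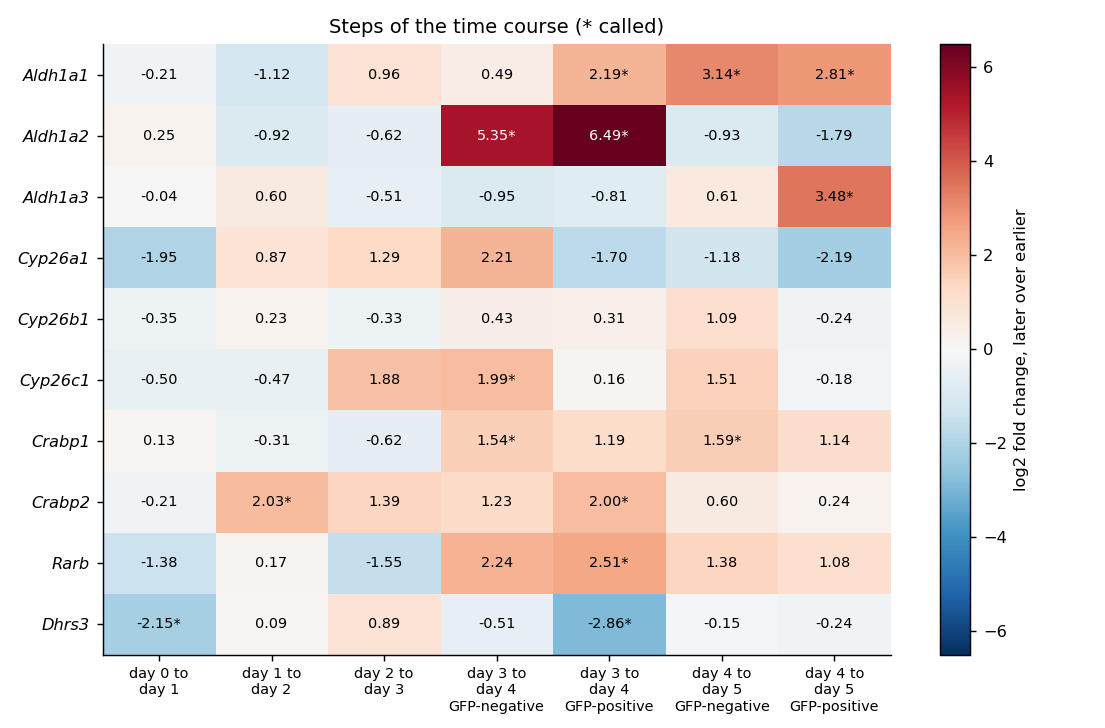
Log2 fold change of each gene (rows) at each step of the time course (columns), later over earlier, with the value written in each cell and an asterisk where it passed the test. The largest values are the rises of Aldh1a2 from day 3, 6.49 into the GFP-positive and 5.35 into the GFP-negative gate.

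Few genes that supply the pathway were called between the gates, and few of all tested genes were. The shares of all tested genes were 0.328% higher and 3.63% lower at day 4, and 0.400% and 4.61% at day 5. Of 8 tested genes of retinol uptake and storage, 0 were called by limma at day 5. An unadjusted p below 0.05 was found for 4, beside 5523 of all 21005 tested genes. Stra6, the retinol uptake receptor, stood at 395 ± 4.36 in GFP-negative and 363 ± 10.1 in GFP-positive libraries at day 4 (adjusted p = 0.747). Of 18 tested genes that interconvert retinol and retinaldehyde, 1 was called lower at day 4 (Akr1b8, an aldo-keto reductase, -1.66, adjusted p = 2.13e-06) and 0 at day 5. At day 5, 11 of the 18 had an unadjusted p below 0.05 in limma, beside the same 5523 of all 21005 tested genes. Rdh10, the main enzyme that oxidizes retinol in the embryo, was at 672 ± 44.1 and 589 ± 29.0 in the GFP-negative and GFP-positive gates at day 4 (adjusted p = 0.603). At day 5 it was at 1109 ± 222 and 609 ± 27.0, a difference of -0.84 that was not called (adjusted p = 0.0024). The genes Stra6 and Rdh10 are named here for their role, after their values were seen. The median differences were -0.51 and -0.29 for the uptake and storage list and -0.18 and -0.23 for the interconversion list at days 4 and 5.

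Of 18 tested receptors and cofactors, 1 was called lower in GFP-positive cells at day 4, beside 3.63% of all tested genes. It was Rxrg (-2.57, adjusted p = 7.73e-08), with 483 ± 38.8 against 81.2 ± 14.9 normalized counts. At day 5, 0 of the 18 were called by limma, beside 0.400% of all tested genes called higher and 4.61% lower. An unadjusted p below 0.05 was found for 3, beside 5523 of all 21005 tested genes. Rxrg, a retinoid X receptor, also fell from day 3 to day 4 GFP-positive by 2.72 (adjusted p = 7.46e-09). The median of the list was 0.06 at day 4 and 0.09 at day 5.

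Genes known to respond to retinoic acid in some tissue, 28 in all and all tested, differed in both directions. At day 4, 2 were called higher in GFP-positive cells (Nr2f2 and Pax6) and 8 lower, beside 0.328% and 3.63% of all tested genes, with a median of -1.19. At day 5, 2 were higher (Meis1 and Pax6) and 11 lower, beside 0.400% and 4.61% of all tested genes, with a median of -1.06. The lower ones were mostly posterior patterning genes. Those with the largest differences were Gbx2, Cdx2 and Hoxb1 at day 4 (-4.32, -4.25 and -4.11, adjusted p = 1.01e-09, 5.97e-07 and 6.01e-05). At day 5 they were Cdx2, Hoxd4 and Hoxb2 (-5.39, -4.56 and -4.55, adjusted p = 1.82e-08, 8.75e-05 and 6.21e-05). Cdx2, a regulator of the posterior body axis, stood at 549 ± 226 in GFP-negative and 27.6 ± 11.8 in GFP-positive libraries at day 4. Of the 28 genes, 0 were called for a change of the gate difference between the days by limma. An unadjusted p below 0.05 was found for 7, beside 1974 of all 21005 tested genes.

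Of the higher ones, Nr2f2 was 2.39 higher at day 4 (adjusted p = 8.84e-05) at 2516 ± 102 against 488 ± 125 normalized counts, Meis1 was 2.34 higher at day 5 (adjusted p = 1.21e-06) and Pax6 was 1.82 and 1.83 higher at days 4 and 5 (adjusted p = 9.59e-06 and 7.64e-06). Pax6 is also one of the eye-field markers. From day 3, 14 of the 28 were called higher into the GFP-negative gate, beside 2.00% of all tested genes. Into the GFP-positive gate 7 were called higher and 1 lower, beside 3.33% and 7.36% of all tested genes. The rises of Nr2f2 and Nr2f1 were the largest in both. Nr2f2 rose by 7.60 into the GFP-positive and by 5.21 into the GFP-negative gate (adjusted p = 1.71e-12 and 4.22e-09), and Nr2f1 by 6.28 and 4.89 (adjusted p = 6.3e-10 and 1.81e-07). Marker lists of other cells moved with the gate alongside the Hox and Cdx genes and Cyp26a1. Beside the pluripotency and mesendoderm lists, 4 of 6 midbrain and hindbrain markers were called lower in GFP-positive cells on both days, and 1 was higher at day 5. Gbx2 and Hoxb1 belong to that list too. At days 4 and 5, 3 and 4 of 6 visceral or primitive endoderm markers, 4 and 2 of 5 somitic mesoderm markers, 2 and 2 of 4 endothelial markers and 3 and 3 of 6 surface ectoderm and neural crest markers were lower. Of all tested genes, 3.63% and 4.61% were called lower on these days. The summed midbrain and hindbrain markers were 4199 to 5481 normalized counts in GFP-negative and 3299 to 3615 in GFP-positive libraries at day 4. The part of these cells in the differences was not tested.

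**Figure D5:**
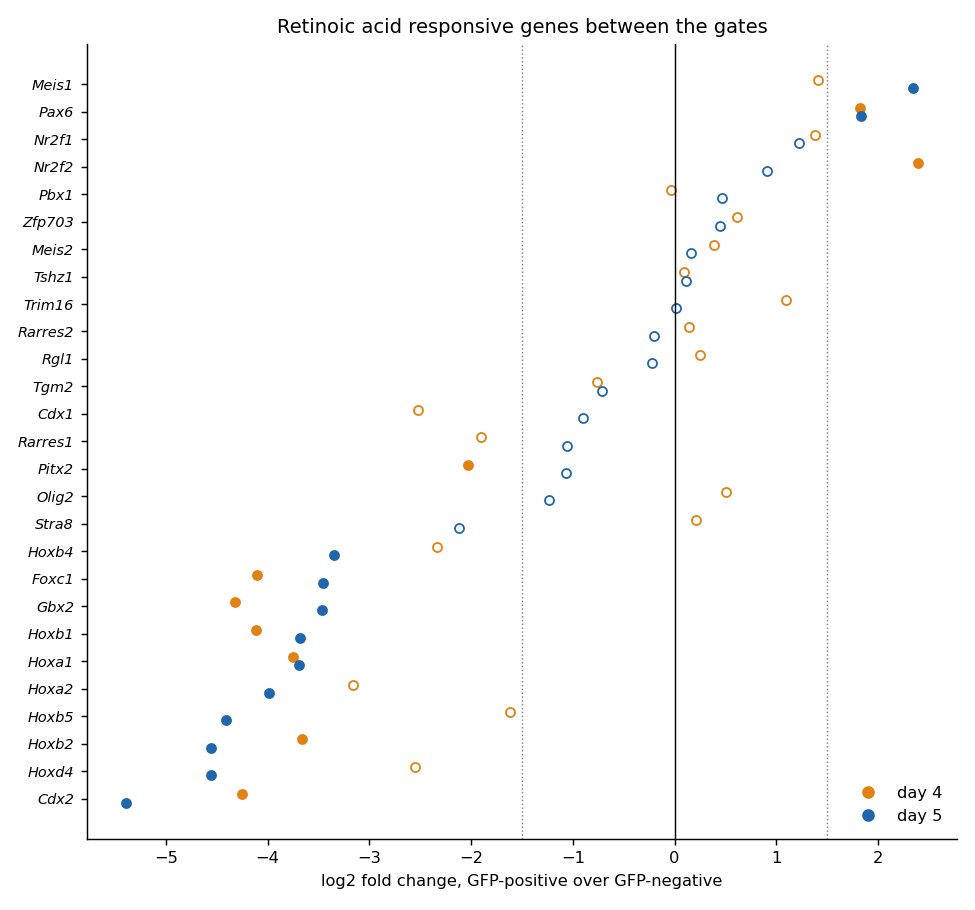
Log2 fold change of GFP-positive over GFP-negative cells at day 4 and day 5 for 27 of the 28 genes known to respond to retinoic acid, ordered by the day 5 value; filled points passed the test and dotted lines mark 1.5 either way. Cdx2, Hox genes, Gbx2 and Foxc1 lie to the left, and Meis1, Pax6 and Nr2f2 to the right.

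Of 17 tested genes of dorsal and ventral eye identity, 3 were higher and 1 lower at day 4 (0.328% and 3.63% of all tested genes), and 7 were higher and 1 lower at day 5 (0.400% and 4.61%). Vax2, a regulator of the ventral retina, was at 8.15 ± 4.91 and 10.9 ± 0.719 normalized counts in the day 4 GFP-negative and GFP-positive gates and at 13.3 ± 2.74 and 212 ± 31.3 at day 5. Its day 5 difference was 3.91 (adjusted p = 5.85e-07). Tbx2, a dorsal regulator, rose by 5.24 and Mitf, a regulator of pigmented epithelium, by 3.02 from day 4 to day 5 in GFP-positive cells (adjusted p = 6.55e-08 and 1.09e-08). Tbx3, another dorsal regulator, was the 1 gene of this list called lower on each day, at -2.97 on day 4 and -2.18 on day 5 (adjusted p = 7.78e-06 and 0.00027). Tbx2 and Mitf were called in the test of the change of the gate difference, at 4.93 and 2.61 (adjusted p = 0.000237 and 9.64e-05).

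Over the 24 libraries, the genes whose log2 values correlated best with each member are given as a description, since libraries of a group share a time and gate. For Aldh1a3 they were Vax2 (Pearson r = 0.933), Insyn2b (0.856) and Mitf (0.811), with Spearman rho of 0.843, 0.768 and 0.476. For Aldh1a2 they were Scube2, Hopx and Frmpd3 (r = 0.964, 0.930 and 0.930), and for Aldh1a1 Flrt2, Plcxd3 and Npnt (0.968, 0.963 and 0.952). Snai1, Flt1 and Wnt4 were nearest to Cyp26a1 (0.923, 0.900 and 0.887), and Crnde, Ano1 and Fam181b to Cyp26c1 (0.948, 0.945 and 0.942). The neighbours Cyp26a1 and Cyp26c1 correlated with each other at 0.592.

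Crabp2 had the closest partners, with Fam149a, Meis3 and Zfp521 all at r = 0.992, and Crabp1 had Zic1, Airn and Nedd9 (0.938, 0.933 and 0.932). Dhrs3 was nearest to Aqp3, A2m and Bhlhe40 (0.939, 0.929 and 0.926) and Rarb to Tcim, Map6d1 and Fsd1l (0.888, 0.879 and 0.875). The correlations of Cyp26b1 were the lowest of the 10, with Hoxd4, Mmp14 and Ctla2b (0.733, 0.709 and 0.708).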

How the data were processed

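RNA-seq of 24 libraries (8 groups of 3) was analysed. The deposited signal values are counts that the authors divided by DESeq2 size factors, made from kallisto 0.43.1 abundance estimates, per the submitters' processing notes and the study's methods (mm10). The table also holds columns of the authors' own calls, which were not used, and 0 columns of per-sample values were left unassigned. Size factors differed, with 1 read worth 0.809 to 1.40. Values of log2(normalized count + 1) were fitted with limma 3.58.1 (R 4.3.3) in 1 model of 8 group means over all 24 libraries, with a mean-variance trend. A gene had to reach 10 in 3 or more libraries, which 21005 did. Adjustment (Benjamini-Hochberg) was per contrast. Genes below 0.001 after it whose log2 fold change lay beyond 1.5 either way were called. Fold changes understate low genes. The fit was checked on simulated data. Replicates were treated as unpaired, since same-numbered libraries did not deviate together. Alternatives changed the pseudocount, filter, scaling, variance prior, block, samples, thresholds and transcript length, or left out each library. Promoters were searched in RefSeq's table and read sharing in GENCODE M21 transcripts, with Python 3.11.15. The members and lists were chosen with earlier results of these data known. Named were all 10 members, at most 3 called genes per list and contrast with the largest change, and the 3 genes most correlated with each member, leaving out predicted gene symbols. Some genes of the lists are not reported here.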

Additional observations from a re-analysis of the deposited data

Results flagged for a closer look

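The gate difference of Aldh1a3 changed between the days. GFP-positive over GFP-negative it was 0.14 at day 4 and 3.01 at day 5, giving an interaction of 2.87 ± 0.42 in log2 units (limma, adjusted p = 0.00085). The 3 day 5 GFP-positive libraries were all above the 3 GFP-negative ones. The adjusted p was near 0.001, and the call was lost in 18 of 24 fits that left out 1 library, while the value stayed between 2.70 and 3.15. It was also lost with no filter (adjusted p = 0.0012), quantile normalization (0.00251), a constant prior variance (0.00184), the replicate block (0.00187) and a test against 1.5 (1).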

How the results depend on the processing

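Members called were counted again under 10 alternatives and with each of the 24 libraries left out. These counts stand without the share of all tested genes called under the same setting. They show how the calls moved and cannot be set against a background. The day 5 gate count of 4 became 7 and the day 4 count of 2 became 4 at an adjusted p below 0.05 with no fold threshold. At that threshold the counts were 2 from day 0 to day 1, 3 from day 2 to day 3, 8 and 7 from day 3 to the day 4 GFP-positive and GFP-negative gates, and 5 from day 4 to day 5 in GFP-positive cells. A test against a log2 fold change of 1.5 gave 1 member at day 4, 3 at day 5, 0 for the change of the gate difference, 0 from day 0 to day 1 and 0 from day 1 to day 2, 2 and 1 into the GFP-positive and GFP-negative gates, and 1 and 0 from day 4 to day 5 in GFP-positive and GFP-negative cells. Fits to the groups compared alone, which have fewer samples, gave 1 at day 4, 3 at day 5, 0 from day 0 to day 1, 2 and 1 into the 2 gates and 0 in GFP-negative cells from day 4 to day 5. In GFP-positive cells from day 4 to day 5 they gave 2 as before, with Aldh1a1 no longer called (adjusted p = 0.00219) and Aldh1a2 called lower. For the change of the gate difference the count fell from 1 to 0 with no filter, quantile normalization or a constant prior variance, and with no filter it was also 0 from day 0 to day 1. A pseudocount of 0.5 gave 1 from day 4 to day 5 in GFP-positive cells. With 1 library left out the counts ranged from 0 to 1 for the change of the gate difference, 0 to 1 from day 0 to day 1, 0 to 1 from day 2 to day 3, 1 to 4 into the GFP-negative and 3 to 6 into the GFP-positive gate, 2 to 3 between the day 4 gates, and 1 to 2 and 1 to 3 from day 4 to day 5 in GFP-negative and GFP-positive cells. The 6 and the 4 arose without day 0 replicate 1. Where no construction is named, the cause was not tested.

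Small differences turned sign. The Aldh1a1 interaction was 0.068 with a pseudocount of 5. With quantile normalization the Cyp26b1 day 4 difference was 0.071, the Rarb day 5 difference 0.38 and the Dhrs3 interaction 0.14. With 1 library left out, the day 5 differences ranged from -0.16 to 0.77 for Aldh1a2 and from -0.19 to 0.20 for Rarb, the Cyp26b1 day 4 difference from -0.30 to 0.076 and the Dhrs3 interaction from -0.55 to 0.36. Repeats spaced by 2 bases were in 88 promoters, and DR5 repeats of exact motifs in 3.

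Same-numbered libraries did not deviate together (correlations -0.284 to 0.241, and 0 of 9 group pairs with all over 0.1), so the values gave no sign of pairing, but each day 4 and day 5 sample was sorted into both gates, and whether equal numbers mark the same pool of organoids is not given in the sources used here. With the replicate block the change of the gate difference had 0 members called (Aldh1a3, adjusted p = 0.00187), the rise of Cyp26c1 into the day 4 GFP-negative gate was no longer called (adjusted p = 0.00108), and no other call of a member changed. Whole reads could not be recovered, since 35.8% to 76.5% of low values were whole multiples within 0.1 reads, so count models were not run. Depth limits low values, such as Rarb and Aldh1a1 before day 5, Cyp26c1 up to day 2 and Dhrs3 in GFP-positive cells.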
